A study of Homo sapiens with 36 samples.

Results

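The genes described here encode proteins of the mitochondrial ribosome. They were taken from a table of bead-array intensities as every probe whose gene name begins with MRPL, for the large subunit, or MRPS, for the small subunit, followed by a digit. The rule gave 114 of 47323 probes, under 77 gene names. The large subunit had 76 probes for 48 names and the small subunit 38 probes for 29 names. A probe was kept if its detection p-value was below 0.05 on 6 or more arrays, and 109 of the 114 probes passed (72 large, 37 small), among 22612 probes tested. Every one of the 77 names kept at least 1 probe, and 99 of the 109 kept probes were detected on all 36 arrays. The probes that did not pass were 1 each of MRPL39, MRPL4, MRPL44, MRPL55 and MRPS18C. MRPL42P5, 1 of the 77 names, is a pseudogene entry, and its probe cannot be separated with certainty from MRPL42 itself.

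The mitochondrial ribosome translates the few proteins encoded by mitochondrial DNA, all of them subunits of the respiratory chain complexes and the ATP synthase. Its ribosomal RNAs come from mitochondrial DNA, whereas its proteins are encoded in the nucleus, made in the cytosol and imported. Some of these proteins have counterparts in bacterial ribosomes, and others are found in mitochondrial ribosomes only.

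RNA was measured from 2 human cell lines, each with and without cigarette smoke extract (CSE), an aqueous extract of smoke. DLD-1 cells are epithelial and derive from a colorectal tumour, and Jurkat cells derive from a T-cell leukaemia. Control DLD-1 and control Jurkat cells received 0% CSE (12 arrays for each line), and treated cells of each line received 20% CSE for 2 to 6 h (6 arrays for each line). The exposure of a single sample is not given, and neither line carries a genetic change made for the study, as far as the labels say. Whether arrays of a group stand for separate cultures is not stated in the labels, and p-values therefore measure only the spread among these samples, possibly technical. Levels are log2 normalized intensities, and a gene is represented by its brightest kept probe unless another probe is named. Differences are log2 values with standard errors (SE) from a limma model over all 36 arrays, and adjusted p-values are Benjamini-Hochberg values over all 22612 probes, with a threshold of 0.05.

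Between 16012 and 19131 probes were detected per array and precision is limited by how many arrays each group has. Of 13 T-cell marker genes, 12 were detected in the Jurkat groups and 2 in the DLD-1 groups, and of 15 epithelial markers, 13 were detected in DLD-1 and 2 to 3 in Jurkat. Detected here means on most arrays of a group, which held for none of 6 fibroblast markers and for 2 to 4 of 7 monocyte or B-cell markers. The arrays lay on 3 BeadChips, labelled 3, 4 and 5, which held 2, 3 and 1 of the DLD-1 CSE arrays and 3, 1 and 2 of the Jurkat CSE arrays, with controls of both lines on each. Jurkat control replicate 7 is named Jurkat in its title and source, and DLD-1 in its cell line field. It was kept as Jurkat. Without it 2 of 109 member probes changed in DLD-1 and 9 in Jurkat, where 3.60% and 17.6% of all probes did.

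MRPL18 was the member that rose with CSE in both lines. It encodes a large-subunit protein with a bacterial counterpart. In human cells it is also known to take part in the import of 5S ribosomal RNA into mitochondria, and in heat-shocked human cells a form of it that stays in the cytosol has been linked to the translation of HSP70 chaperones. In DLD-1 its level ran from 10.21 to 10.78 in controls (median 10.62) and from 11.10 to 12.17 with CSE (median 11.34). All 6 treated arrays lay above all 12 controls. The rise was 0.93 (SE 0.16), or 1.90-fold, with an adjusted p of 0.000261. In RNA from a whole culture, more cells that carry a transcript and more of it per cell cannot be told apart. A second probe of the gene ran from 10.08 to 10.59 in controls (median 10.30) and from 10.67 to 11.88 with CSE (median 11.16), again without overlap. It rose by 0.91 (SE 0.16, 1.87-fold, adjusted p = 0.000306). Over all probes, 0.27% had every DLD-1 CSE array above every control.

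In Jurkat, MRPL18 ran from 11.12 to 11.64 in controls (median 11.44) and from 11.46 to 13.10 with CSE (median 12.10). Of the 6 treated arrays, 5 lay above all controls. The rise was 0.71 (SE 0.16), or 1.64-fold, with an adjusted p of 0.00112. The second probe ran from 10.63 to 11.38 in controls (median 10.92) and from 11.28 to 12.83 with CSE (median 11.70), and 4 treated arrays lay above all controls. It rose by 0.83 (1.78-fold, adjusted p = 0.000141). The DLD-1 rise minus the Jurkat rise was 0.22 (SE 0.23, adjusted p = 0.650), which does not show that the responses were of equal size. Within BeadChips 3, 4 and 5 the change was 0.62, 1.41 and 0.41 in DLD-1, with adjusted p-values of 0.461, 0.00129 and 1.0. In Jurkat it was 0.36, 0.86 and 1.08, with adjusted p-values of 0.382, 0.137 and 0.0371.

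**Figure D1:**
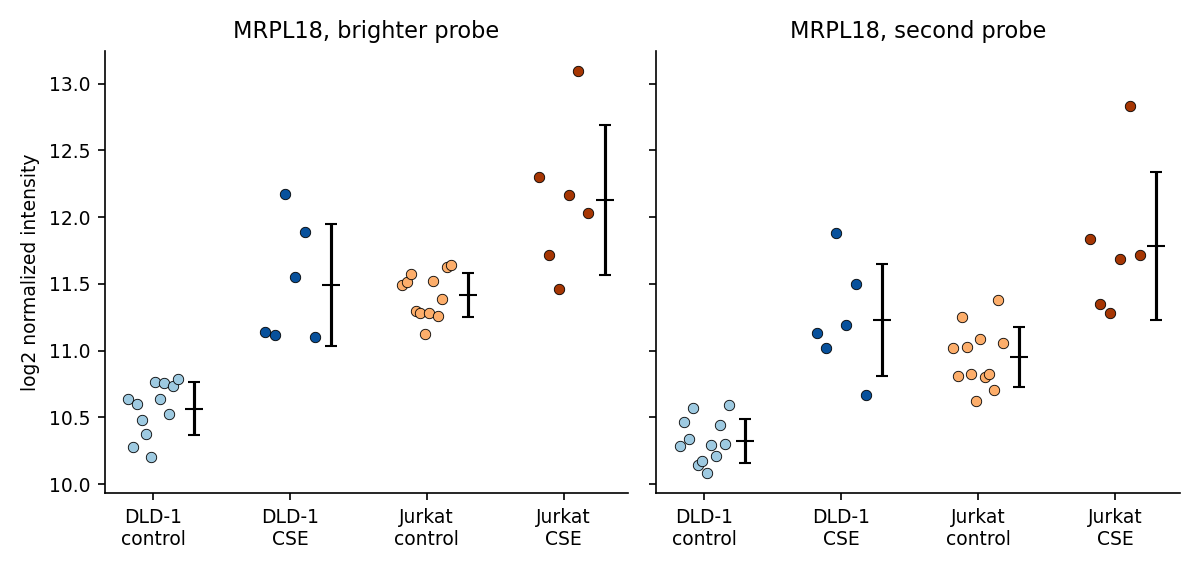
Log2 normalized intensity of the brighter (left) and second (right) MRPL18 probe, 1 point per array, in 12 control and 6 CSE arrays of each line; bars give the mean and SD. With both probes the 6 DLD-1 CSE arrays lie above the 12 DLD-1 controls, while in Jurkat 5 and 4 of the 6 CSE arrays lie above all Jurkat controls.

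The promoter of MRPL18 is shown because heat shock factors bind inverted repeats of the unit GAA, and MRPL18 was the member that rose in both lines. The sequence is from RefSeq (GRCh38.p14), at chr6:159789617-159789841 on the plus strand, and the RefSeq table lists 3 starts for the gene. Capitals mark a match to 2 facing units, GAANNTTC, which lies 41 to 34 bases before the start that belongs to this window. The same letters lie 14 to 21 bases past another of the listed starts, and a match to TTCNNGAA lies 11 to 18 bases past the start of this window.
MRPL18: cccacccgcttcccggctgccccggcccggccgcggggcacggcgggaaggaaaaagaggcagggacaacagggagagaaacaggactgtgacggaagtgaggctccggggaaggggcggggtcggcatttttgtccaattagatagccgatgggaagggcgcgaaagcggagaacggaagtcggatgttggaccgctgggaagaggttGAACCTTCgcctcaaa
The promoter table held 84 entries for 68 of the member names, each from 250 bases before to 50 bases after a start. A match to GAANNTTC or TTCNNGAA, on either strand, was present in 16.7% of the 84 entries and in 13.5% of all 35116 entries of the table. A match to 3 units, in which the shorter motif is followed or preceded by a further unit at the same spacing of NN, was present in 2 member entries (2.38%), those of MRPL48 and MRPL51, and in 0.490% of all entries. MRPL51 passed the threshold with CSE in neither line. The shorter motif was also present in entries of members not called with CSE, among them MRPL1, MRPL33 and MRPL54. The MRPL48 window, chr11:73787624-73787873 on the plus strand, has its match 67 to 55 bases before the start, in capitals, and is printed because MRPL48 also rose in Jurkat.
MRPL48: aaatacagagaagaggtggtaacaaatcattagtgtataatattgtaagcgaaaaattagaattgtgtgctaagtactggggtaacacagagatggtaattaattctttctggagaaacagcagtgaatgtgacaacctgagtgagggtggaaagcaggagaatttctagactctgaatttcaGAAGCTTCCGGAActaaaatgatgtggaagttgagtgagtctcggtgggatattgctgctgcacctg
Other motifs were searched without mismatch on both strands. CCGGAAGT, the core of sites for the factor GABPA, was in 16.7% of member entries and 4.14% of all entries. AAGATGGCG, a form of the YY1 site, was in 15.5% and 1.75%, and the palindromic NRF1 site was in 1.19% and 1.24%. These matches describe the letters in the windows and are no evidence of binding.

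TCP1, which encodes a subunit of the cytosolic chaperonin that folds actin and tubulin, starts from the opposite strand beside MRPL18. Its promoter entry, chr6:159789553-159789852 on the minus strand, contains the whole MRPL18 window printed above. TCP1 was looked up after the values of MRPL18 were known. Its 3 probes differed between CSE and control in DLD-1 by 0.49 (adjusted p = 0.0450), 0.75 (adjusted p = 0.0101) and 0.86 (adjusted p = 0.0553), so that 2 of them rose. In Jurkat the same probes gave 0.15, 0.17 and 0.64, and none passed the threshold.

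MRPL18 was set beside HSPA6, the inducible HSP70 chaperone named in the series title, on the same arrays. HSPA6 rose by 6.31 in DLD-1 and by 5.02 in Jurkat. Among the 6 Jurkat CSE arrays, replicates 1 to 6 had MRPL18 levels of 12.30, 11.72, 11.46, 12.17, 13.10 and 12.03 and HSPA6 levels of 10.79, 9.32, 7.40, 10.90, 12.99 and 9.88. The array highest in one gene was highest in the other, and the lowest was also shared. Pearson's r was 0.97 (exact permutation p = 0.00278, adjusted p = 0.0111) and Spearman's rho 0.94 (exact permutation p = 0.0167, adjusted p = 0.0667), and r without the 2 arrays farthest from the HSPA6 median was 0.93. Among the 6 DLD-1 CSE arrays, MRPL18 was 11.14, 11.11, 12.17, 11.55, 11.89 and 11.10 and HSPA6 11.83, 11.89, 13.64, 9.25, 12.71 and 9.45. The arrays highest in HSPA6 were again highest in MRPL18, but the others had no shared order, with r = 0.58 (exact permutation p = 0.214, adjusted p = 0.285) and rho = 0.60 (exact permutation p = 0.242, adjusted p = 0.322). In DLD-1 the 2 arrays farthest from the HSPA6 median were replicates 4 and 6, the lowest in HSPA6. Over the 4 arrays left without them r was 0.97, and 4 arrays are too few to show a relation.

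DNAJB1, a co-chaperone of HSP70, was the other gene set beside MRPL18. It gave r = 0.91 in Jurkat (exact permutation p = 0.0264, adjusted p = 0.0528; rho = 0.77, exact permutation p = 0.103, adjusted p = 0.206). Without the 2 farthest arrays r was 0.17, so the Jurkat relation with DNAJB1 rests on those arrays. In DLD-1 r was 0.32 (exact permutation p = 0.576) and rho 0.31 (exact permutation p = 0.564), and r without the 2 farthest arrays was 0.58. These 4 relations form the family for the adjustment, all tests were two-sided, and a BeadChip held at most 3 CSE arrays of a line, too few for a value within it.

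**Figure D2:**
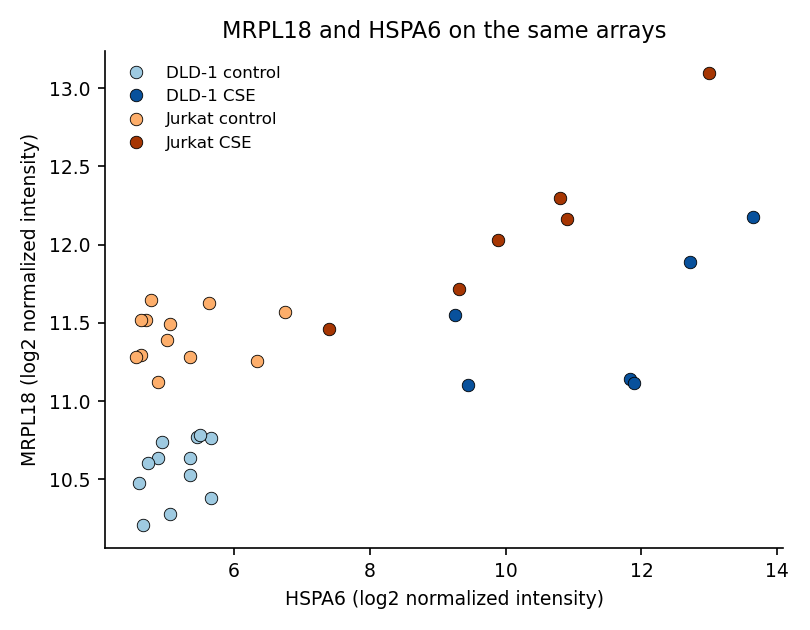
Log2 normalized intensity of HSPA6 (horizontal) and MRPL18 (vertical) on the same array, 1 point for each of the 36 arrays, coloured by line and treatment. The Jurkat CSE arrays run from 7.40 and 11.46 to 12.99 and 13.10, whereas DLD-1 CSE arrays with HSPA6 near 11.8 have MRPL18 near the bottom of their group.

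In DLD-1, the MRPL18 probes were the member probes that changed, 2 of 109 (1.83%), where 3.71% of all probes changed in either direction and 1.7% rose. No member probe fell past the threshold in limma, where 2.01% of all probes did. An unadjusted limma p under 0.05 was found for 11 of the 109, beside 3621 of all 22612 probes. The large subunit had 2 of 72 probes changed and the small subunit 0 of 37. The median change over the 109 probes was 0.05, the same in each subunit, beside -0.003 over all probes. The member nearest to the threshold after MRPL18, named after its value was seen, was MRPS26, a small-subunit protein, at -0.45 (adjusted p = 0.0736). It passed when the treated DLD-1 replicate 1 was left out (-0.59, adjusted p = 0.00995), and also on leaving out replicate 2 of the same group (-0.52, adjusted p = 0.0472). Fitted within BeadChips 3, 4 and 5, 0, 4 and 0 member probes passed in DLD-1, where 0.146%, 3.45% and 0.00442% of all probes did. On BeadChip 4 both MRPL18 probes rose, and MRPL38 (-0.81, adjusted p = 0.0123) and MRPS26 (-0.89, adjusted p = 0.0266) fell.

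In Jurkat, 11 of 109 member probes changed (10.1%), where 18.1% of all probes changed. Of these, 10 rose and 1 fell, beside 7.4% of all probes that rose and 10.7% that fell. By name, the large subunit had 6 of 48 that rose and 1 that fell, and the small subunit 1 of 29 that rose and 0 that fell. The name that rose in the small subunit was MRPS18A, a protein built into the large subunit, so by structure no small-subunit name was called. The unadjusted p was under 0.05 for 28 of the 109 probes in limma, beside 6701 of all 22612 probes. No member probe separated all Jurkat CSE arrays from all controls, where 0.761% of all probes did so upwards and 2.15% downwards. The Jurkat calls depended on scaling, tried with each array scaled to its median instead of quantile normalization. Both MRPL18 probes then rose, MRPL17 (-0.64, adjusted p = 0.00799) and MRPS25 (-0.70, adjusted p = 0.0210) fell, and no other member passed. That median was taken over all 47323 probes, most of them not detected on a given array. Under it the member medians of Jurkat control arrays spread over 1.14, beside 0.52 with quantile normalization. Fitted within BeadChips 3, 4 and 5, 0, 1 and 2 member probes passed in Jurkat, where 5.12%, 2.55% and 2.90% of all probes did. The 20 probes of structural RNAs without a poly(A) tail, a list taken from an earlier analysis of these data, had a median change of 1.52 in Jurkat (18 rose, 1 fell) and 0.04 in DLD-1. Their median level per array was 5.72 to 6.39 in Jurkat controls and 6.77 to 8.34 in Jurkat CSE arrays, and their part in the results below was not tested.

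MRPS18A rose most among the other members in Jurkat. It is named for the small subunit but is built into the large one. Its level ran from 7.18 to 8.23 in controls (median 7.83) and from 7.96 to 8.64 with CSE (median 8.48), so that 4 treated arrays lay above all controls and the groups overlapped. The rise was 0.52 (SE 0.14, adjusted p = 0.0082), and it was 0.33 (adjusted p = 0.199) under median scaling. In DLD-1 the difference was 0.21 and did not pass.

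MRPL48, MRPL53, MRPL38, MRPL55 and MRPL40 encode large-subunit proteins that bacterial ribosomes lack. MRPL48 ran from 8.26 to 9.30 in Jurkat controls (median 8.82) and from 8.74 to 9.43 with CSE (median 9.38), and rose by 0.43 (SE 0.13, adjusted p = 0.0155). MRPL53 ran from 8.39 to 9.20 (median 8.77) and from 8.69 to 9.51 (median 9.23), and rose by 0.41 (SE 0.12, adjusted p = 0.0126). For each of these, 4 CSE arrays lay above all controls and the groups overlapped. The MRPL48 call was lost without Jurkat CSE replicate 1 (adjusted p = 0.0501) and the MRPL53 call without Jurkat CSE replicate 5 (adjusted p = 0.0560).

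MRPL38 ran from 9.70 to 10.22 in Jurkat controls (median 10.09) and from 10.21 to 10.50 with CSE (median 10.37), and rose by 0.33 (SE 0.12, adjusted p = 0.0433). MRPL40 ran from 8.10 to 8.56 (median 8.31) and from 8.40 to 9.04 (median 8.54), and rose by 0.32 (SE 0.11, adjusted p = 0.0350). MRPL55 ran from 9.10 to 9.67 (median 9.31) and from 9.54 to 9.84 (median 9.65), and rose by 0.33 (SE 0.12, adjusted p = 0.0438). The CSE arrays above all controls numbered 5 for MRPL38, 3 for MRPL40 and 2 for MRPL55. When each of the 36 arrays was left out in turn, the call was lost 9 times for MRPL38, 6 times for MRPL40 and 13 times for MRPL55. A second MRPL55 probe gave 0.35 (adjusted p = 0.110).

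MRPL17, a large-subunit protein with a bacterial counterpart, fell in Jurkat. It ran from 9.94 to 10.40 in controls (median 10.08) and from 8.92 to 10.12 with CSE (median 9.80). Of the treated arrays, 4 lay below all controls and the others overlapped with them. The change was -0.50 (SE 0.15, adjusted p = 0.0168), and the call was lost without Jurkat CSE replicate 4 (adjusted p = 0.100) or Jurkat CSE replicate 5 (adjusted p = 0.0711). In DLD-1 it was -0.26 (adjusted p = 0.442).

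Further probes of MRPS11 and MRPL21 passed in Jurkat while the brightest probe of the gene did not. MRPS11, a small-subunit protein with a bacterial counterpart, gave 0.43 (adjusted p = 0.0378) with its second probe and 0.23 (adjusted p = 0.139) with the brighter one. MRPL21, a large-subunit protein with a bacterial counterpart, gave 0.43 (adjusted p = 0.0499) with its dimmest probe and 0.02 and 0.10 with its others. Besides MRPL18, the names that changed in Jurkat differed between CSE and control in DLD-1 by values from -0.29 for MRPL38 to 0.32 for MRPL48, and none passed there.

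**Figure D3:**
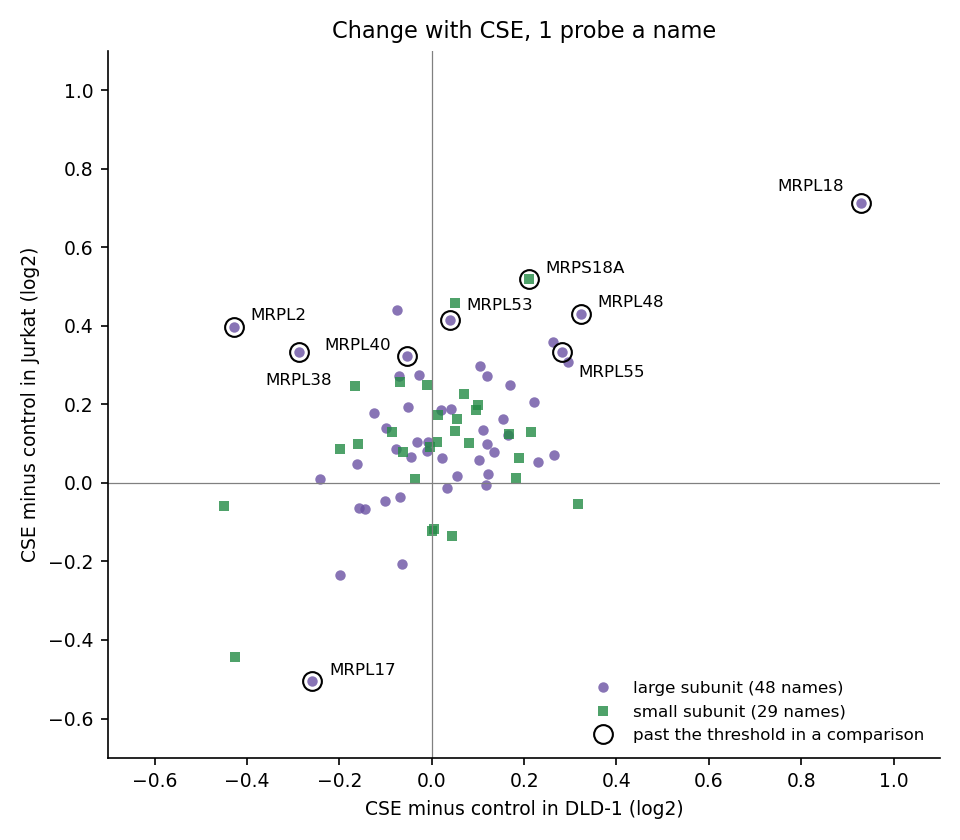
Log2 change with CSE in DLD-1 (horizontal) and in Jurkat (vertical) for 77 member names, 1 probe each, large subunit as circles and small subunit as squares; rings mark names past an adjusted p of 0.05 in either line or in the difference between lines. MRPL18 lies apart at 0.93 and 0.71, and most of the other names lie above the horizontal zero line.

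With all arrays fitted, large and small subunit had like medians in each line. In Jurkat the median change was 0.11 over the 72 large-subunit probes and 0.12 over the 37 small-subunit probes, beside 0.02 over all probes. By structure the medians were 0.13 (large) and 0.12 (small). Within BeadChips 3, 4 and 5 the large-subunit median was 0.28, 0.26 and -0.04 in Jurkat and 0.17, -0.01 and 0.04 in DLD-1. Over the settings other than leave-outs, the small-subunit median ran from 0.03 to 0.21 in Jurkat and from -0.11 to 0.17 in DLD-1. Of the 109 member probes, 90 had a positive difference in Jurkat (82.6%, beside 53.7% of all probes) and 67 in DLD-1 (61.5%, beside 49.3% of all probes). Under median scaling the Jurkat medians were 0.02 for the large and 0.03 for the small subunit, with all probes at -0.06. In DLD-1 they were 0.14 in each subunit, with all probes at 0.03, so the line with the larger member median depends on the scaling. A change of 1.5-fold was reached by 1 name in DLD-1 and 1 in Jurkat, MRPL18 in each case, and none reached 2-fold. The shares of all names that reached these folds with CSE were not counted.

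The full range among Jurkat control arrays was wider than the mean shift with CSE. For the small subunit the shift was nonetheless larger than the SD of the controls. For each array, the deviation of each probe from the control mean of its own line was taken, and the median over member probes noted. For the large subunit these medians ran from -0.20 to 0.23 in Jurkat controls (SD 0.15, n = 12) and averaged 0.14 ± 0.11 (SD, n = 6) with CSE. For the small subunit they ran from -0.10 to 0.13 in Jurkat controls (SD 0.08, n = 12) and averaged 0.15 ± 0.08 (SD, n = 6) with CSE. Treated and control arrays overlapped in both subunits. In DLD-1 the CSE arrays averaged 0.06 ± 0.08 (SD, n = 6) for the large and 0.02 ± 0.11 (SD, n = 6) for the small subunit, and they too overlapped with their controls.

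**Figure D4:**
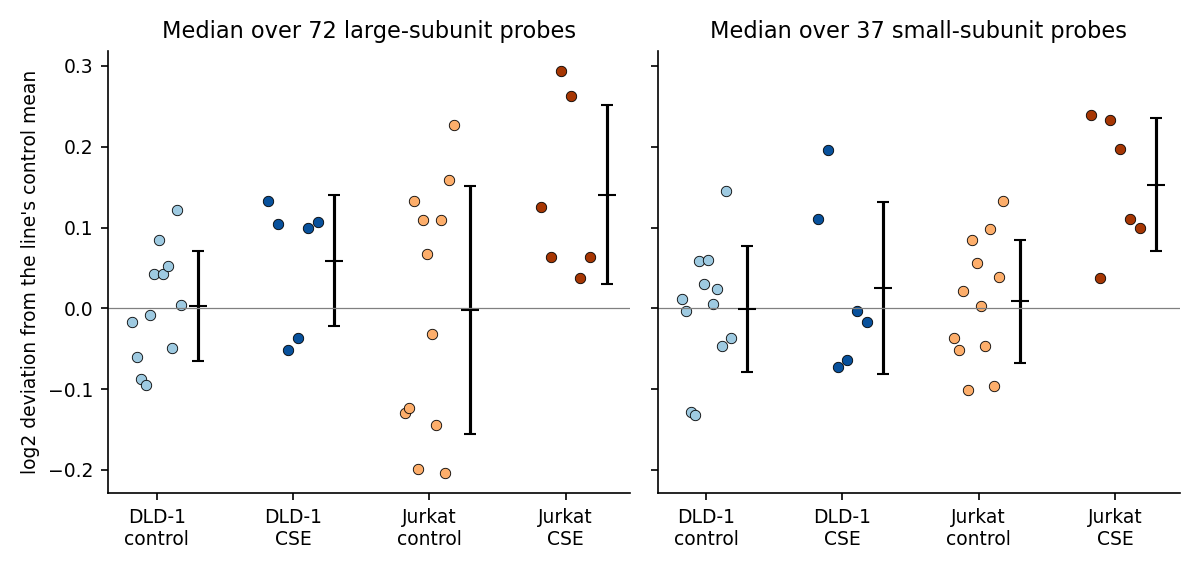
Median log2 deviation of 72 large-subunit (left) and 37 small-subunit (right) probes from the control mean of the same line, 1 point per array, with mean and SD as bars. Jurkat control arrays spread from -0.20 to 0.23 in the large subunit, and the Jurkat CSE arrays, all above 0, overlap with them.

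The effect of CSE differed between the lines for 2 member probes, MRPL2 and MRPL38 (2 of 109, both lower in DLD-1, where 5.6% of all probes differed, 3.66% upwards and 1.95% downwards in DLD-1 relative to Jurkat). MRPL2 is a large-subunit protein whose bacterial counterpart lies close to the site of peptide bond formation. In DLD-1 it ran from 8.07 to 9.33 in controls (median 8.58) and from 7.42 to 8.71 with CSE (median 8.18). In Jurkat it ran from 9.05 to 9.93 (median 9.39) and from 9.53 to 10.43 (median 9.71). Control and treated arrays overlapped in each line, and neither change passed by itself, at -0.43 (adjusted p = 0.179) in DLD-1 and 0.40 (adjusted p = 0.110) in Jurkat. The difference was -0.83 (SE 0.24, adjusted p = 0.0374).

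MRPL38 in DLD-1 ran from 9.20 to 9.91 in controls (median 9.58) and from 8.85 to 9.67 with CSE (median 9.24), with overlap. The DLD-1 change of -0.29 (adjusted p = 0.189) minus the Jurkat rise gave -0.62 (SE 0.17, adjusted p = 0.0216). Within BeadChips 3, 4 and 5 the difference was -0.53, -1.67 and -0.13 for MRPL2 and -0.12, -1.23 and -0.24 for MRPL38. Under median scaling it was -0.65 (adjusted p = 0.111) and -0.43 (adjusted p = 0.230). The MRPL38 call was lost on leaving out replicate 3, 4 or 5 of the treated DLD-1 arrays (adjusted p = 0.0614, 0.0502 and 0.0539), and the MRPL2 call when any 1 of 10 arrays was left out.

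Members whose place or role departs from the name were followed throughout. MRPL12, which also binds the mitochondrial RNA polymerase, differed with CSE by 0.11 in DLD-1 and 0.30 in Jurkat (adjusted p = 0.156). MRPL41, a large-subunit protein also described in apoptosis and cell cycle arrest, gave 0.15 and 0.16. The paralogs of MRPS18A are MRPS18B and MRPS18C, which are built into the small subunit. MRPS18B gave -0.06 and 0.08, and MRPS18C 0.19 and 0.06. MRPS30, a large-subunit protein in spite of its name, gave -0.01 and 0.25. MRPS36, now listed as KGD4 and known as a part of the 2-oxoglutarate dehydrogenase complex, gave 0.18 and 0.01. None of these 6 passed the threshold in either line.

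The untreated lines differed in most member probes, at a share near that of all probes. Of 109 member probes, 72 passed (66.1%), where 60% of all probes did. They were higher in DLD-1 for 27 and lower for 45, beside 27.6% and 32.3% of all probes. By name, the large subunit had 15 higher and 19 lower of 48, and the small subunit 9 higher and 10 lower of 29. Of all names, 27.5% were higher and 31.9% lower. The median difference (DLD-1 minus Jurkat) was -0.16 for large-subunit probes, -0.004 for small-subunit probes and -0.04 for all probes. Median scaling gave -0.35, -0.19 and -0.07, and it changed the split of called member probes from 27 higher and 45 lower to 16 higher and 53 lower. In the main fit differences reached 1.5-fold for 23 names and 2-fold for 5. The shares of all names that reached these folds were not counted.

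MRPL40 and MRPL19 were higher in control DLD-1 without overlap. MRPL40 ran from 9.64 to 10.23 in control DLD-1 (median 10.01) and from 8.10 to 8.56 in control Jurkat (median 8.31). The difference was 1.68 (SE 0.09), or 3.20-fold, with an adjusted p of 5.05e-20. MRPL19, a large-subunit protein with a bacterial counterpart, ran from 9.70 to 10.43 (median 10.11) and from 8.12 to 9.61 (median 8.74), a difference of 1.24 (SE 0.13, adjusted p = 1.14e-10). The other names among the 8 largest upward differences were MRPL30 (0.87), MRPL27 (0.79), MRPL43 (0.77), MRPL54 (0.68), MRPL44 (0.67) and MRPS15 (0.61). Of these, MRPL43 and MRPS15 did not overlap. MRPL54 did not pass within BeadChips 3 and 4 (adjusted p = 0.344 and 0.0622), nor MRPL27 within BeadChips 3 and 5 (adjusted p = 0.122 and 0.104). The brightest probe stood alone for MRPL27, whose further probes gave -0.067 and -0.0039, and for MRPL43 the third probe gave -0.76 (adjusted p = 3.3e-05). Probes of a gene also disagreed in sign for MRPL35, MRPS12, MRPL11 and MRPL21. MRPL35 gave 0.42 with its brightest probe and -0.68 and -0.85 with the others, all past the threshold. MRPS12, a small-subunit protein with a bacterial counterpart, gave 0.31 and -0.96 with the probes that passed. For MRPL11 and MRPL21 the probes that passed were all lower in DLD-1.

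MRPL39 and MRPL48, both absent from bacterial ribosomes, were lower in control DLD-1 without overlap. MRPL39 ran from 9.20 to 10.07 in control DLD-1 (median 9.63) and from 10.63 to 11.10 in control Jurkat (median 10.92), a difference of -1.27 (SE 0.09, adjusted p = 1.39e-16). MRPL48 ran from 7.20 to 7.89 (median 7.70) and from 8.26 to 9.30 (median 8.82), a difference of -1.19 (SE 0.11, adjusted p = 4.76e-13). MRPS25, a small-subunit protein that bacteria lack, was lower by a difference of -1.15 (SE 0.18, adjusted p = 3.97e-07), with overlap. The size for MRPS25 depended on the processing, at -0.53 in the authors' normalized table and -0.86 with an offset of 50. In that table MRPL48 gave -0.85, and these values are short of 2-fold, though each passed. MRPL18 (-0.85, adjusted p = 3.14e-07), MRPS21 (-0.83), MRPL2 (-0.83), MRPL12 (-0.76, adjusted p = 3.56e-07) and MRPL42 (-0.72) followed. MRPL18, MRPS21 and MRPL42 did not overlap between the lines.

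Among the members followed throughout, MRPS18C (-0.64, adjusted p = 3.79e-09) and MRPS36 (-0.56, adjusted p = 0.000666) were lower in control DLD-1. Within BeadChip 3 MRPS36 gave -0.24 (adjusted p = 0.390), and in the authors' normalized table -0.18 (adjusted p = 0.00145). MRPS18A (0.21), MRPS18B (0.16), MRPS30 (0.23) and MRPL41 (0.19) did not pass. MRPS30 (adjusted p = 0.0612) passed with the authors' normalized table, an offset of 50, only the compared groups or array weights, and MRPS18A passed within BeadChip 3 (0.60, adjusted p = 0.0159). In all, 5 of 109 member probes lay above and 9 below without overlap, where 11.8% and 11% of all probes did.

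**Figure D5:**
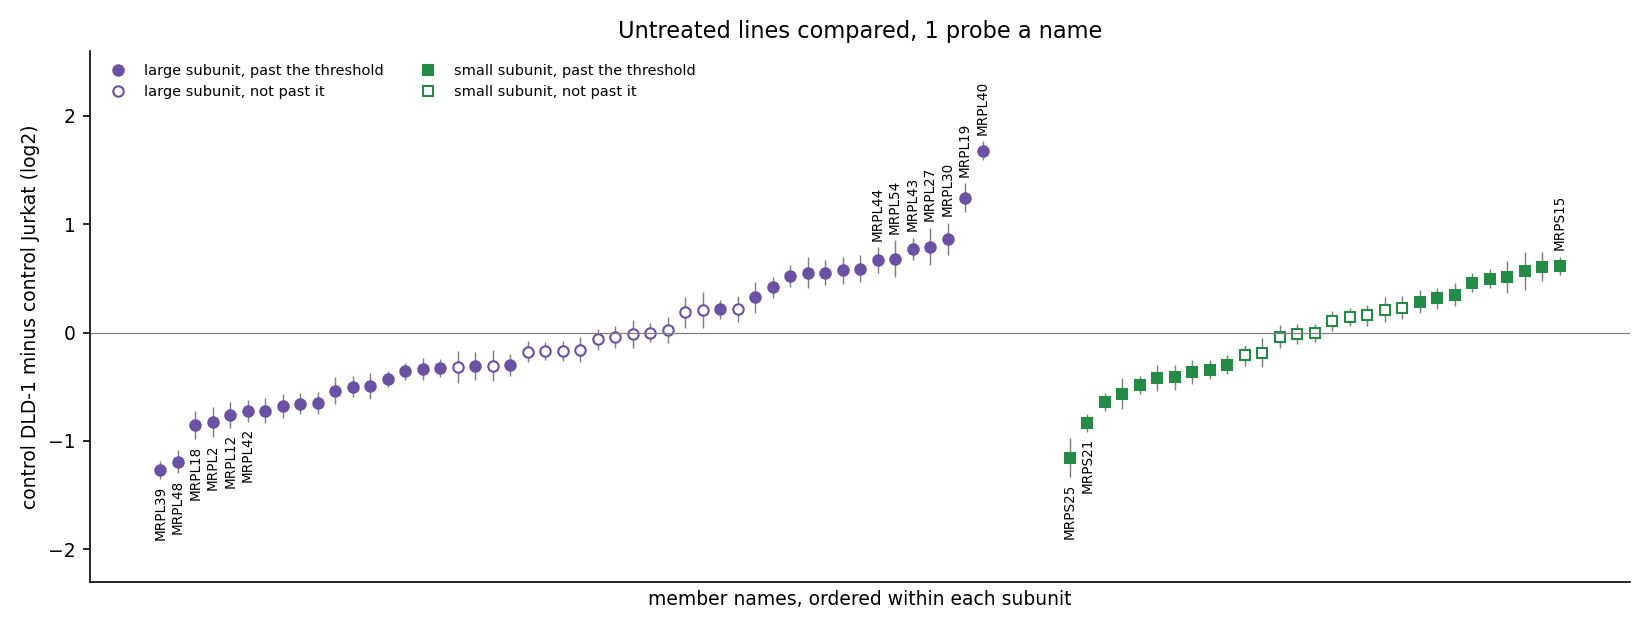
Log2 difference between 12 control DLD-1 and 12 control Jurkat arrays for 77 member names, 1 probe each, ordered within each subunit; bars are SE from the model, filled symbols passed an adjusted p of 0.05, and the 8 largest differences each way carry names. The large-subunit names reach from -1.27 for MRPL39 to 1.68 for MRPL40, and the small-subunit names from -1.15 for MRPS25 to 0.61 for MRPS15.

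Genes that act beside the mitochondrial ribosome were taken from lists and represented by 1 probe each. Over all 17756 names, likewise with 1 probe each, 3.89% changed in DLD-1 (1.61% rose and 2.28% fell). In Jurkat 18.7% of all names changed (7.46% rose and 11.2% fell). The unadjusted p in limma was under 0.05 for 2873 of the 17756 names in DLD-1 and for 5383 in Jurkat. The counts of each list below are to be read beside these values. A list of mitoribosomal genes under other symbols held 7 genes, of which OXA1L is not a ribosomal protein. Of the 7, 0 changed in DLD-1 (limma, 1 with unadjusted p under 0.05) and 2 in Jurkat. OXA1L, the receptor that inserts new mitochondrial proteins into the inner membrane, rose by 0.34 in Jurkat (adjusted p = 0.0237), and MRP63, a large-subunit protein, gave -0.66 (adjusted p = 0.0224). The difference between lines was 1.27 for MRP63 (adjusted p = 0.0082) and -0.51 for OXA1L (adjusted p = 0.0414). The list medians were 0.03 in DLD-1 and 0.20 in Jurkat.

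Of 14 mitochondrial translation factors, 0 changed in DLD-1 (limma, 2 with unadjusted p under 0.05) and 3 in Jurkat. TACO1, a translational activator of cytochrome oxidase subunit I, rose by 0.39 (adjusted p = 0.0196), and the elongation factor TUFM rose by 0.30 (adjusted p = 0.0493). LRPPRC, which stabilises mitochondrial messenger RNAs, gave -0.42 (adjusted p = 0.0330). The list medians were 0.15 and 0.07.

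Of 23 assembly and ribosomal RNA modification genes, 2 fell in each line and none rose. In DLD-1 these were METT11D1, an older name of a mitochondrial ribosome assembly factor of the methyltransferase family, at -0.48 (adjusted p = 0.0107) and SPG7, a subunit of a protease of the inner membrane, at -0.61 (adjusted p = 0.0114). In Jurkat they were SPG7 at -0.50 (adjusted p = 0.0141) and DDX28, a helicase of large-subunit assembly, at -0.53 (adjusted p = 0.0222). The list medians were -0.10 and 0.07. Of 8 genes of mitochondrial DNA transcription and maintenance none changed in either line in limma, with 2 and 1 at an unadjusted p under 0.05.

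Of 7 regulators of nuclear genes for mitochondria, 2 fell in DLD-1 and 3 in Jurkat, and none rose. MYC, a transcription factor of growth genes, fell by 0.71 in DLD-1 (adjusted p = 0.0204). In Jurkat MYC fell by 1.99, and the effects differed by 1.28 (adjusted p = 0.0025). PPRC1, a coactivator related to PGC-1, fell by 0.61 in DLD-1 (adjusted p = 0.0476). GABPA, the DNA-binding subunit of the factor whose core site was searched above, fell by 0.65 in Jurkat (adjusted p = 0.0095), and GABPB2, a partner subunit of that factor, fell by 1.01. The list medians were -0.16 and -0.17.

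For the cytosolic ribosome, 0 of 77 protein genes changed in DLD-1 (limma, 1 with unadjusted p under 0.05), and in Jurkat 2 rose and 1 fell. RPL13A rose by 0.50 and RPS9 by 0.35. RPL7L1, a gene related to RPL7 that the name rule took in, fell by 0.95. The list medians were 0.01 and 0.09, beside member medians over probes of 0.05 and 0.12.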

How the data were processed

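The deposited table holds average bead intensity per probe, not normalized, per the file headers, with a detection p-value per probe and array deposited by the authors. Its software was not given in the sources used here, and 0 per-sample columns were left unused. The deposited series table of intensity values from the authors served as a check and had the same ranks within each array. Intensities were background-corrected and quantile-normalized with neqc (offset 16, limma 3.58.1, R 4.3.3). Figures used matplotlib 3.10.9 in Python 3.11.15.

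Groups followed the title and source labels. A limma model with 4 group means was fitted to the 22612 probes kept, and tested on simulated data. P-values were adjusted by Benjamini-Hochberg within each comparison. Alternatives were median scaling, a larger offset, other filters, 1 probe a gene, subunits by structure, array weights, each BeadChip alone and each array left out.

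Members, lists and rules were chosen with earlier results of these data known. Named were the 8 largest called differences each way per comparison, MRPL18, MRPL12, MRPL41, MRPS18A, MRPS18B, MRPS18C, MRPS30 and MRPS36, genes whose probes disagreed with CSE, and list genes called with CSE (at most 6 a list). The rule's brightest and dimmest genes were not named, since levels of different probes are not comparable. RefSeq GRCh38.p14 matched 76 of the 77 names by symbol and 1 by synonym (MRPS36).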

Additional observations from a re-analysis of the deposited data

Results flagged for a closer look

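In 3 of 56 group values of the named members, 1 CSE array lay far from the other 5 of its group relative to the group's range; chance marks about 1 in 20 groups in this way. MRPS18B was 10.14 in Jurkat CSE replicate 2, with the nearest array at 10.67. MRPL39 was 10.29 in Jurkat CSE replicate 5, with the nearest at 10.67. MRPL21 was 10.59 in DLD-1 CSE replicate 6, with the nearest at 10.27. The response to CSE differed between the lines in a test of the difference itself for MRPL2 (-0.83 on the log2 scale) and for MRPL38 (-0.62), both described above with the settings that end the call.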

How the results depend on the processing

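Percentages in brackets are shares of all probes called under the same setting. The number of member probes called in DLD-1 was 2 (3.71%). It was 1 with 1 probe a gene (4.03%), 0 and 4 within BeadChips 3 and 4 (0.146% and 3.45%), and 2 to 3 when an array was left out. In Jurkat it was 11 (18.1%). It was 4 under median scaling (16.6%), 7 with no filter on dim probes (7.63%), and 0 and 2 within BeadChips 3 and 5 (5.12% and 2.90%). With an array left out it was 5 to 12. It was 7 without control replicate 2 (17.4%), 5 without CSE replicate 1 (13.8%), 6 without CSE replicate 3 (17.1%) and 6 without CSE replicate 4 (15.5%). For the difference between effects it was 2 (5.6%). It was 0 under median scaling (7.49%), 1 with no filter (1.82%) and 1 with array weights (6.12%). Within BeadChip 3 it was 0 (0.031%), and with so few of all probes called this says little about the members. BeadChips 4 and 5 each held a lone CSE array of a line, and no count is given for them. With an array left out it was 0 to 2. It was 0 without DLD-1 CSE replicate 3, 4 or 5, and 1 without DLD-1 CSE replicate 1, Jurkat CSE replicate 3 or 4, Jurkat control replicate 8, or DLD-1 control replicate 4, 10 or 12. For the control lines it was 72, with 43 within BeadChip 3, 49 within BeadChip 4, 47 within BeadChip 5 (of all probes 41.0%, 44.6% and 43.6%) and 69 to 74 with an array left out. Among the 8 largest control-line differences each way, signs turned for further probes of MRPL27 (-0.0039 and -0.067) and MRPL43 (-0.76). MRPL18 kept its call in both lines in all 36 leave-outs (0.79 to 1.01 in DLD-1, 0.52 to 0.84 in Jurkat) and under median scaling (1.11 and 0.66). Median scaling moved the median difference of effects over all probes from -0.02 to 0.12, and the members' from -0.08 to 0.16 (large) and from -0.10 to 0.12 (small). Within a BeadChip fewer arrays enter, and a lone CSE array of a line is assumed to vary like the other groups. The cause of each change was not tested. No paired analysis was possible because replicate numbers were given in accession order and pair nothing.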

Other observations

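Member changes in DLD-1 and Jurkat, each against its own controls, had a Pearson correlation of 0.45 over 77 names (Spearman 0.27), of 0.34 over 76 names without MRPL18, and of 0.35 over 17756 names of all kinds. Names are not independent replicates, since all come from the same arrays.

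The following were chosen after their values were seen. MRPL35, a large-subunit protein with a bacterial counterpart, has 3 kept probes that behaved differently among DLD-1 controls. The brightest ran from 10.7 to 11.1, whereas the dimmer ones ran from 5.4 to 7.9 (SD 0.86) and from 5.2 to 7.3 (SD 0.72). Over DLD-1 controls the median SD of a member probe was 0.24, beside 0.29 over all probes, and over Jurkat controls it was 0.27 beside 0.30.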
